A study of Mus musculus with 6 samples.

Results

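The weak promoter peaks of the ATAC-seq peak table were peaks close to the start of a gene that held few reads. They were selected on measured signal: a peak was taken when the first distance listed to an annotated transcription start was at most 1000 bp and its mean CPM (each count divided by its library's total and multiplied by 1000000) over the 6 libraries was under 2. The rule found 3100 peaks at 2727 genes, which were 14.2% of the 21892 promoter peaks and 2.82% of the 109859 peaks in the table. The 2 members nearest the limit, at Epdr1 and Fam114a2, both had a mean of 1.9996 CPM, and the 2 promoter peaks just above it, at Zfp658 and Casp1, had 2.0003 and 2.0008 CPM.

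The study compared bone marrow cells of 3 wildtype mice with those of 3 mice in which Mel18 had been removed conditionally in the hematopoietic system. The cells were sorted as lineage-negative (Lin-), that is, without the surface markers of mature blood cells, and the labels call them hematopoietic stem and progenitor cells. The labels state neither age and sex nor the Cre driver nor which exons were deleted, and the 3 columns of a group could not be tied to particular mice, so they are called libraries 1 to 3 of each group. The question was whether loss of Mel18 alters which DNA is accessible.

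Mel18, encoded by Pcgf2, is a subunit of Polycomb repressive complex 1, which compacts chromatin and attaches ubiquitin to histone H2A. Its best-known targets are CpG-rich promoters of developmental genes that are silent in the tissue at hand. In ATAC-seq the transposase Tn5 cuts where DNA is free of packed nucleosomes, so an active promoter usually gives a broad, strong peak over its start, while a silent gene gives little or none.

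The sequences below are the promoters, from 250 bases before the start to 50 after it in RefSeq's GRCm38.p6 annotation (the assembly named mm10), of genes whose weak peaks stood at the ends of the knockout contrast. Capitals mark CpG, the dinucleotide that sets apart the promoter classes described further on. The first 3 belong to genes whose peak was higher in the knockout libraries, namely Slc2a12 (chr10:22644761-22645060, plus strand), H2afy2 (chr10:61783815-61784114, minus strand) and Myl10 (chr5:136693426-136693725, plus strand). Mx1, which came before them, had no entry in the promoter table.
Slc2a12: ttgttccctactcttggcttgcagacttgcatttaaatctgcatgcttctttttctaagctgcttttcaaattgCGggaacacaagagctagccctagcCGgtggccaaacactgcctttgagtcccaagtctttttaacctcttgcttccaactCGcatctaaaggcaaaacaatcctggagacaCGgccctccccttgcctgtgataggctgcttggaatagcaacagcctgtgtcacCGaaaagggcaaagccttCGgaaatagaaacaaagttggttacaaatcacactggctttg
H2afy2: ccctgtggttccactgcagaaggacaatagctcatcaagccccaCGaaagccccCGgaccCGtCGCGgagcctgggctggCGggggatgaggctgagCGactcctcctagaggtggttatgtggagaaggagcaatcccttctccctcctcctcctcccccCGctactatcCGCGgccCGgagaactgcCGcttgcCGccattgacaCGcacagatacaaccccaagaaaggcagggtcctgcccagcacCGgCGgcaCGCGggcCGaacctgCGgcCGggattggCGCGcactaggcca
Myl10: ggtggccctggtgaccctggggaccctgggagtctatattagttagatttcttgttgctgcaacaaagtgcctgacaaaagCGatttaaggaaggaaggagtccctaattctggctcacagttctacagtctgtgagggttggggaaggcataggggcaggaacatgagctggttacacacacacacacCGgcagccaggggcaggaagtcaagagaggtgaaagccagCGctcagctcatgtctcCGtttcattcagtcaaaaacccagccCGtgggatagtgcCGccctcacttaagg
The next 3 belong to genes whose peak was lower, namely Gm35612 (chrX:50537139-50537438, plus strand), Cib3 (chr8:72212788-72213087, minus strand) and Phf2 (chr13:48870836-48871135, minus strand).
Gm35612: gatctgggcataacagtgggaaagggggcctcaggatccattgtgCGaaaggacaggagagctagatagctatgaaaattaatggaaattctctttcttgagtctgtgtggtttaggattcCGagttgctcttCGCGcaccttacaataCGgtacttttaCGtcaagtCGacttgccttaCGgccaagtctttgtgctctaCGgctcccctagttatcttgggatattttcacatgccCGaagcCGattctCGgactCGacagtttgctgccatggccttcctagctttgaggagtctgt
Cib3: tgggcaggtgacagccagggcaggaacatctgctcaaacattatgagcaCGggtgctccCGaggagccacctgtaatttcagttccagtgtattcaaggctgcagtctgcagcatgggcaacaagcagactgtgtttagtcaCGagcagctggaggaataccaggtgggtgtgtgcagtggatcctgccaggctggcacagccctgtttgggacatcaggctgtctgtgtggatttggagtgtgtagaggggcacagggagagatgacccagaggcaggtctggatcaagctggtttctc
Phf2: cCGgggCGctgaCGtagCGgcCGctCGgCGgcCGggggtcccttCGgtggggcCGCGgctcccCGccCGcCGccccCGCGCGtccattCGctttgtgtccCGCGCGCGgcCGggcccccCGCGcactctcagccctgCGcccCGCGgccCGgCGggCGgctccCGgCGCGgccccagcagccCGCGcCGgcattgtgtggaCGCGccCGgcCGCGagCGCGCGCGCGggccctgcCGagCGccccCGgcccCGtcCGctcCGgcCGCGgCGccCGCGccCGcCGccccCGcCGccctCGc
Gria2 (chr3:80802786-80803085, minus strand) and Ifng (chr10:118440796-118441095, plus strand) were added after their values were seen, as a CpG-rich promoter of a brain gene and a promoter of a lymphocyte gene with fewer CpG, each with a weak peak over it.
Gria2: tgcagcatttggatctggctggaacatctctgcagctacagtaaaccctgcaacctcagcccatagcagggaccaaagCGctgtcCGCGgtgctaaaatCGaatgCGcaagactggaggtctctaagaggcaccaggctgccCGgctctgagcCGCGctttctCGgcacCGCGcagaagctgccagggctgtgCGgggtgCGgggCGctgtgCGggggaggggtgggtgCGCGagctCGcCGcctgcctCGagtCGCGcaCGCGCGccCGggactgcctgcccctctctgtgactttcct
Ifng: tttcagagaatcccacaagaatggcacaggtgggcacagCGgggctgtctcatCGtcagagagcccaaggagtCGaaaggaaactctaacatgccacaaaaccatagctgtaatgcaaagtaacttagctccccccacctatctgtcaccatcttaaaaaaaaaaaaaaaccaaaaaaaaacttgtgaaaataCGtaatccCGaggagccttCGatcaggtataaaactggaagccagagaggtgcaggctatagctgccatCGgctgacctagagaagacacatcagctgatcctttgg
The 8 promoters held between 3 CpG (Cib3) and 63 CpG (Phf2) in 300 bases. The ratio of observed to expected CpG was 0.37 for Slc2a12, 0.72 for H2afy2, 0.28 for Myl10, 0.74 for Gm35612, 0.14 for Cib3, 1.14 for Phf2, 0.80 for Gria2 and 0.44 for Ifng. So the 3 genes of each direction included CpG-rich and CpG-poor promoters, but the weak peaks of H2afy2 and Cib3 lay outside the printed windows. Where the weak peak covered the window, the ratio was 0.37 and 0.28 for the higher (Slc2a12, Myl10) and 0.74 for the lower (Gm35612). Searched on both strands, the TATA box TATAAA was found in the Ifng promoter and in 13.6% of the 32851 promoters of the RefSeq table. The GC box GGGCGG was found in those of Myl10 and Phf2 and in 35.7% of all. The weak peak covered 134 bases of the printed Slc2a12 window, 116 of that of Myl10, 162 of that of Gm35612, 145 of that of Gria2 and 156 of that of Ifng, and none of the windows of H2afy2, Cib3 and Phf2.

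Most weak promoter peaks did not belong to poorly open genes. For 2145 of the 3100 peaks (69.2%, at 1868 genes) the same gene had another promoter peak at 2 CPM or more; these are called accompanied. The remaining 955 peaks (30.8%, at 859 genes) belonged to genes with no promoter peak at 2 CPM or more and are called lone. Some of these genes had more than 1 weak peak. The strongest promoter peak of an accompanied gene had a median of 14.0 CPM and 10.6 times the level of its weak neighbour (quartiles 5.19 and 19.9 times). Accompanied peaks lay a median of 121 bp from the edge of the nearest peak at 2 CPM or more, and 2036 of them (94.9%) lay within 1 kb of one. Lone peaks lay a median of 8017 bp from such a peak, and 112 (11.7%) were within 1 kb. These gaps and levels followed in large part from the definition, which split the sets by a promoter peak at 2 CPM or more. Most lone genes had a stronger peak elsewhere: 612 of 859 (71.2%) had a peak at 2 CPM or more farther from the start, and 224 had one at 10 CPM or more. No other peak was assigned to 169 (19.7%). Peaks were assigned by nearest start, so they need not belong to the gene. The name "poorly open genes" could therefore cover at most the lone peaks.

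The lone and accompanied peaks took different positions about the start, shown by the plot of signed distance. Of the lone peaks, 318 (33.3%) lay within 100 bp of the start and 234 (24.5%) overlapped it, and they were split evenly between upstream (484) and downstream (470). Accompanied peaks lay mostly downstream (1486, 69.3%), overlapped the start in 118 cases (5.50%), and were most frequent more than 250 and up to 500 bp from it (873, 40.7%). Promoter peaks at 2 CPM or more overlapped the start in 56.1% of cases. Weak peaks were also narrow, with a median of 98 bp against 294 bp for the stronger promoter peaks; the lone ones had a median width of 119 bp and the accompanied ones 90 bp. Peaks below 2 CPM away from promoters, called weak distal peaks, had a median of 120 bp.

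**Figure D1:**
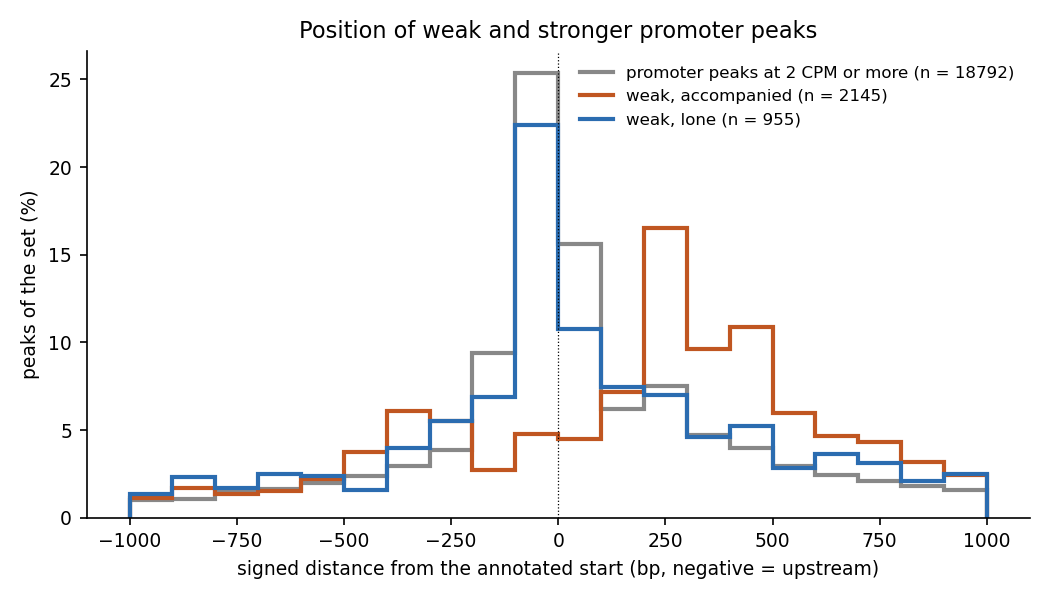
Share of peaks (vertical axis, percent of each set) by signed distance from the annotated start in bins of 100 bp (horizontal axis), for 955 lone and 2145 accompanied weak promoter peaks and 18792 promoter peaks at 2 CPM or more. Lone and stronger peaks are most frequent just at the start, while accompanied weak peaks are most frequent downstream of it.

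The genes of lone peaks differed in kind from those of the other sets. Of 858 lone genes found in RefSeq's gene table, 728 (84.8%) were protein-coding, 82 (9.56%) were long noncoding RNA genes and 39 (4.55%) were microRNA genes. Of 1865 accompanied genes found there, 95.7% were protein-coding and 0.483% were microRNA genes, and for genes with a stronger promoter peak the microRNA share was 1.03%. The start annotated for a microRNA is that of its hairpin, which need not be where its transcript begins. At 329 genes there was more than 1 weak peak, with up to 4 at Ccnjl, Jag2, Lrig3, Thoc7 and Ugt8a.

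Promoters with only a weak peak were mixed in CpG content. Each of the 32851 RefSeq promoters of 300 bases was classed by the peaks that overlapped it: 535 were overlapped by a weak promoter peak and no stronger promoter peak, 11453 by a stronger promoter peak, 1270 by another peak alone, and 19593 by no peak. The median ratio of observed to expected CpG was 0.56 in the weak class (quartiles 0.29 and 0.79), 0.79 under stronger peaks, 0.33 under other peaks and 0.23 where there was no peak. In the weak class 244 promoters (45.6%) had a ratio of 0.6 or more and 141 (26.4%) a ratio under 0.3. The corresponding shares were 77.3% and 6.53% under stronger peaks, 24.1% and 44.0% under other peaks, and 12.1% and 62.8% without a peak. The plot of CpG ratio shows the weak class spread over the whole range.

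**Figure D2:**
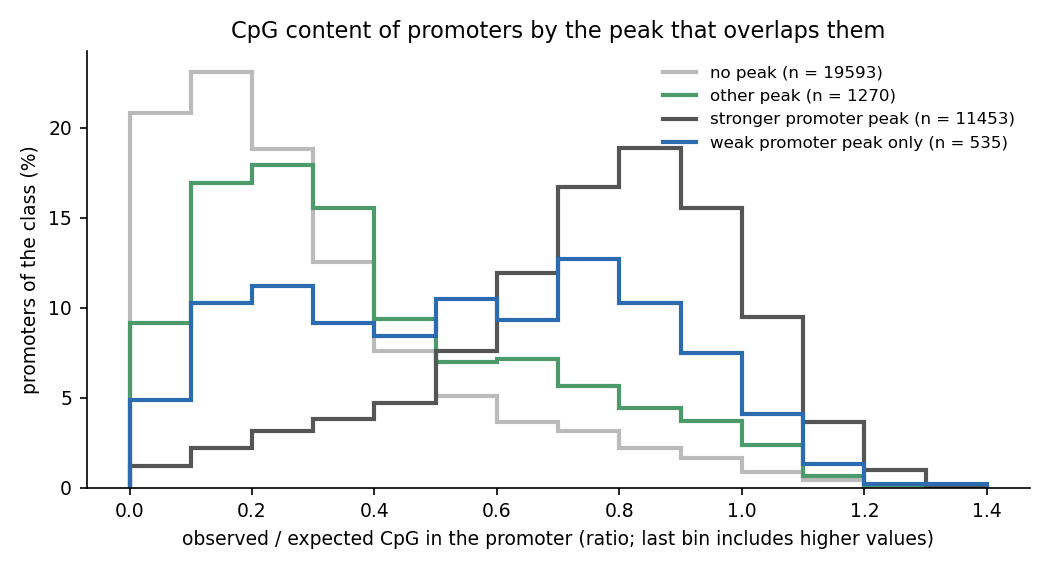
Share of promoters (vertical axis, percent of each class) by ratio of observed to expected CpG in the 300 bases about the start (horizontal axis, bins of 0.1), for promoters overlapped only by a weak promoter peak, by a stronger promoter peak, by another peak alone, or by no peak. Promoters without a peak gather below 0.3, those under a stronger peak above 0.6, and the 535 with only a weak peak lie across both ranges.

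Over promoters with a stronger peak, only a weak peak or no peak, short motifs followed the order of the CpG ratio only when they held a CpG. The ETS core, the GC box and the E-box hold one, and the other motifs searched hold none. So the order of their shares cannot be separated from CpG content, and shares at equal CpG ratio were not tested. The ETS core CCGGAA, bound by a transcription factor family that is prominent in blood cells, was found in 11.2% of the 535 promoters with only a weak peak, in 30.0% of those under stronger peaks and in 6.30% of those without a peak. The GC box GGGCGG was found in 51.2%, 67.7% and 16.9% of the same classes. The TATA box was found in 9.72%, 5.82% and 18.5%. The CCAAT box CCAAT was found in 24.5% of the weak class, less than the 38.5% under stronger peaks and the 37.3% without a peak. The pattern TGANTCA was found in 6.92%, 4.30% and 9.73%, and the E-box CACGTG in 6.73%, 11.1% and 4.87%. TGANTCA allowed any base at N, so it is wider than the AP-1 core and its shares are not those of AP-1 sites. In the 1270 promoters under another peak the shares were 13.1% for the ETS core, 28.7% for the GC box and 34.3% for the CCAAT box. They were 10.1% for the TATA box and for TGANTCA, and 7.17% for the E-box. All were searched on both strands, and a base could count for more than 1 motif. Only 683 of the 3100 weak peaks (22.0%) overlapped a promoter of the table, so these shares describe promoters, not all weak peaks.

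Library totals over all peaks ran from 12000808 to 16709921 counts, the 3 knockout libraries having the larger ones, and a weak promoter peak held between 0 and 78 reads per library with a median of 18. Wildtype library 3 stood apart from the others, with a mean Spearman correlation over all peaks of 0.869 to the other libraries, where the rest had 0.912 to 0.931. Over the weak promoter peaks alone, with their narrow range of levels, the same mean correlations were 0.282 to 0.408. No peak lay inside Pcgf2, so these data do not check the deletion. The peak 15 bp beyond the higher-coordinate edge of the gene had 16.5, 18.4 and 12.9 CPM in wildtype and 17.6, 20.7 and 17.2 CPM in knockout libraries. A stronger peak 649 bp beyond that edge had 63.4, 67.5 and 60.2 against 71.4, 60.3 and 58.2 CPM. Both peaks were assigned to Psmb3. Promoters of the progenitor genes Kit, Cd34 and Meis1 had group means of 13.7 to 23.4 CPM, and that of the myeloid progenitor gene Spi1 had 30.0 and 28.6 CPM, but that of the progenitor gene Gata2 had only 1.96 CPM in wildtype and 3.21 CPM in knockout. The promoter of the NK cell gene Klrb1c had 2.65 and 2.58 CPM, those of the T cell genes Cd3g and Cd8a had 0.677 to 1.82 CPM, and Cd3e and Ly6g had no promoter peak in the table. So promoters of progenitor and mature cell markers overlapped in level at the low end. Nothing in the labels says how the mice were paired or handled together, so p-values measure the spread between these libraries, which may in part be technical.

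Weak promoter peaks held 0.364%, 0.372% and 0.470% of the counted reads in the wildtype libraries and 0.446%, 0.438% and 0.439% in the knockout libraries. Wildtype library 3 was the highest of all and the other wildtype libraries were the lowest, so the groups overlapped (means 0.402% ± 0.0591 and 0.441% ± 0.00392, SD, n = 3 each, exact two-sided permutation p = 0.4, smallest possible 0.1). The lone peaks alone held 0.122%, 0.107% and 0.127% against 0.132%, 0.127% and 0.129%, with every knockout library above every wildtype library (difference 0.0111 percentage points, exact permutation p = 0.1, the smallest this design allows). The accompanied peaks held 0.242%, 0.265% and 0.343% against 0.314%, 0.311% and 0.310%, and here wildtype library 3 was again the highest. The separation seen for the lone peaks was not particular to them. Weak distal peaks held a mean of 3.24% in wildtype and 3.84% in knockout libraries, also without overlap (exact permutation p = 0.1). Promoter peaks at 2 CPM or more were separated in the other direction, with means of 53.5% and 49.7% (exact permutation p = 0.1).

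The mean log2 CPM of the lone peaks was 0.45, 0.26 and 0.42 in the wildtype and 0.45, 0.39 and 0.40 in the knockout libraries, and the groups overlapped (exact permutation p = 0.9). That of the accompanied peaks was 0.30, 0.41 and 0.71 against 0.55, 0.52 and 0.51 (exact permutation p = 0.7). Weak distal peaks, by contrast, had 0.29, 0.29 and 0.32 in wildtype and 0.48, 0.45 and 0.45 in knockout libraries, with no overlap (exact permutation p = 0.1, the smallest possible). In both sets of weak promoter peaks the spread among the wildtype libraries was several times that among the knockout libraries.

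**Figure D3:**
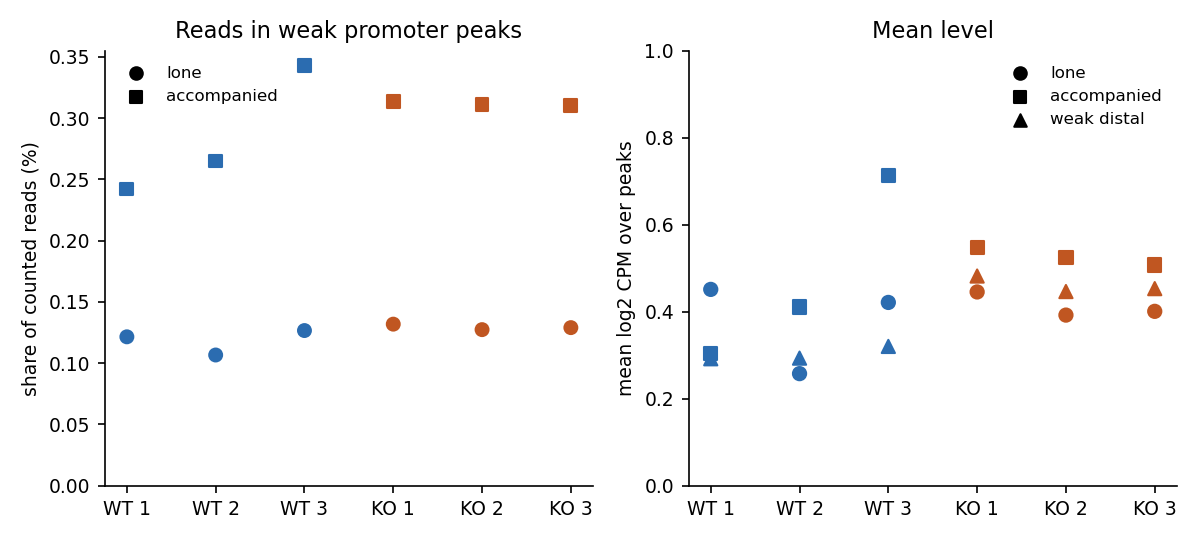
Left, share of counted reads (percent) in lone (circles) and accompanied (squares) weak promoter peaks in each of the 3 wildtype (WT) and 3 knockout (KO) libraries. Right, mean log2 CPM over the same peaks and over weak distal peaks (triangles), where wildtype library 3 has the highest accompanied mean (0.71).

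No weak promoter peak passed the test between genotypes at an adjusted p of 0.05 (edgeR quasi-likelihood test with Benjamini-Hochberg adjustment over all 109859 peaks, all of which passed the filter on low counts), where the share of all peaks passing was 0%. At an unadjusted p under 0.05, 66 members (2.13%) were higher and 47 (1.52%) lower in the knockout, against 3.10% of all peaks higher and 5.97% lower. Both shares were below those over all peaks with this scaling (TMM). Weak distal peaks, which are of like level, had 4.51% higher and 1.56% lower, so the low share of lower peaks was not particular to the members. Stronger promoter peaks had 0.947% higher and 22.0% lower. With offsets fitted to signal level (trended scaling), 30 members (0.968%) were higher and 107 (3.45%) lower, against 2.34% and 3.28% of all peaks, so the lower share was then slightly above that over all peaks. Weak distal peaks with trended scaling had 2.35% higher and 2.90% lower. With DESeq2's Wald test the unadjusted counts were 30 and 24 (0.968% and 0.774%), against 1.91% and 4.26% of all peaks, and it gave adjusted p-values for 5493 peaks, none of them a member. The median standard error of a member's log2 fold change was 0.41, against 0.21 for stronger promoter peaks. Counts were also simulated with these depths, with changes planted in peaks under 2 CPM at any distance from a start. Of the 67 planted at 2-fold, 59 were tested and 0 called, and of the 66 planted at 4-fold, 59 were tested and 21 called. The simulated fit also called 6 unchanged peaks of 107928 tested, where the real fit called none, so its rates need not hold for the real libraries.

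Leaving out wildtype library 3 brought 4 members past the threshold, all higher in the knockout. They were the peaks at Mx1 (adjusted p = 0.00202), Slc2a12 (0.0164), Tmem261 (0.0414) and Ucp2 (0.0425), all by the edgeR quasi-likelihood test. The last 2 were named after their values were seen. Of all peaks, 0.29% were higher past the threshold in that fit, against 0.129% of the members. With trended scaling and the same library left out, 1 member passed, Mx1 (adjusted p = 0.0278, edgeR quasi-likelihood test), while Slc2a12 had 0.132, and 0.0401% of all peaks were higher past the threshold.

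Mx1, an interferon-induced GTPase that acts against viruses, had the largest difference. Its weak peak (chr16:97463312-97463432, mm10, at -466 bp from the start) had 0.620, 0.257 and 0.447 CPM in the wildtype libraries and 2.03, 2.97 and 3.86 CPM in the knockout libraries. The groups did not overlap, and the log2 fold change was 2.72 (SE 0.44, edgeR quasi-likelihood adjusted p = 0.0606). It accompanied a stronger Mx1 promoter peak of 21.9 CPM. In the authors' deposited table this peak has an adjusted p of 0.000262, and edgeR's likelihood ratio test gave the same value here.

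The other 4 of the 5 weak peaks with the smallest p among those higher in the knockout were lone. Slc2a12, a facilitative glucose transporter, had a peak over its start (chr10:22644927-22645077) with 0.266, 0.257 and 0.746 CPM in wildtype and 1.22, 1.45 and 1.99 CPM in knockout libraries (log2 fold change 1.82, SE 0.50, edgeR adjusted p = 0.205). H2afy2, which encodes the histone variant macroH2A2, had an intronic peak 930 bp downstream of its start (chr10:61782872-61782996) with 0.443, 0.513 and 0.447 against 1.16, 1.52 and 1.22 CPM (log2 fold change 1.46, SE 0.42, edgeR adjusted p = 0.243). Myl10, a myosin regulatory light chain, had 0.531, 0.599 and 0.447 against 1.62, 0.924 and 1.74 CPM (chr5:136693536-136693651, log2 fold change 1.44, edgeR adjusted p = 0.283). Gpr34, a receptor for lysophosphatidylserine found on microglia and other myeloid cells, had 0.443, 0.428 and 0.596 against 1.04, 1.39 and 1.41 CPM (chrX:13632060-13632160, log2 fold change 1.36, edgeR adjusted p = 0.296). The groups overlapped for none of the 4.

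Of the 5 with the smallest p among those lower in the knockout, 4 were lone and none passed the adjusted threshold. Gm35612, which has only a provisional symbol, had 2.66, 2.57 and 2.24 CPM in wildtype and 1.10, 1.39 and 0.836 CPM in knockout libraries (chrX:50537219-50537380 at -89 bp, log2 fold change -1.16, SE 0.34, edgeR adjusted p = 0.251). Cib3, of the calcium- and integrin-binding family, had 2.21, 1.45 and 2.16 against 0.869, 0.924 and 0.579 CPM (chr8:72212030-72212149, log2 fold change -1.29, edgeR adjusted p = 0.266). Myo5b, a myosin motor of vesicle transport, had 2.74, 1.28 and 1.34 against 0.464, 0.462 and 0.900 CPM (log2 fold change -1.54, edgeR adjusted p = 0.277). Tmc7, of the transmembrane channel-like family, had a peak over its start with 1.86, 1.37 and 2.01 against 0.522, 1.06 and 0.579 CPM (chr7:118584649-118584778, log2 fold change -1.28, edgeR adjusted p = 0.316). The accompanied peak was that of Phf2, a chromatin protein of the histone demethylase family, with 2.74, 1.63 and 1.94 against 0.985, 0.726 and 1.03 CPM (chr13:48870666-48870780, log2 fold change -1.19, edgeR adjusted p = 0.298) beside a promoter peak of 8.47 CPM. Here too the groups overlapped at none of the 5.

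**Figure D4:**
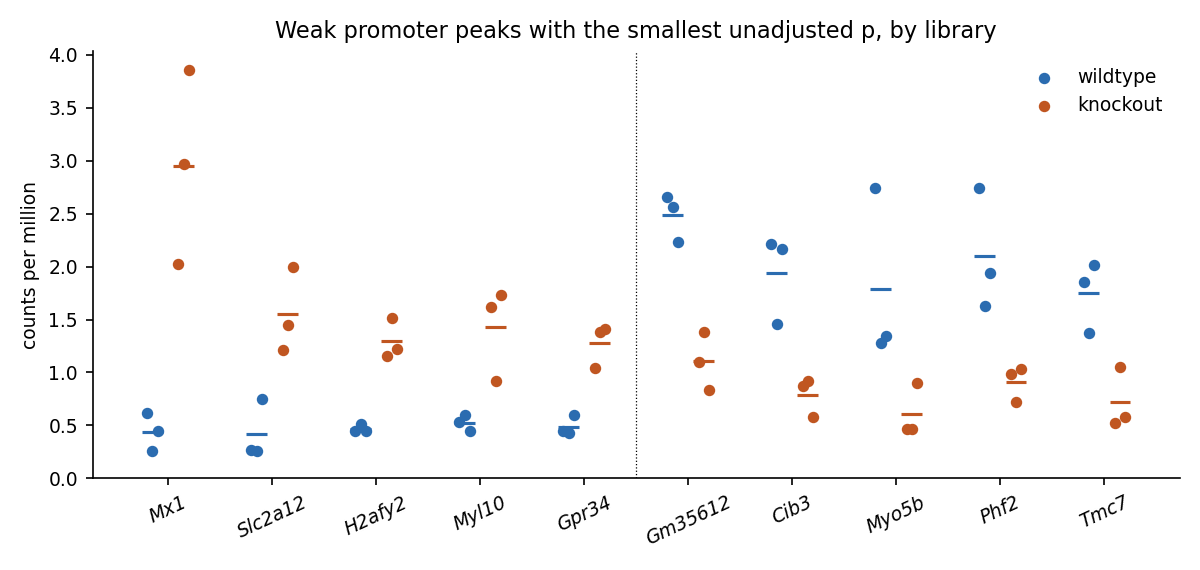
CPM in each library (points) and group means (lines) for the 5 weak promoter peaks of smallest p among the higher (left of the dotted line) and among the lower (right) in the knockout. The 3 wildtype and 3 knockout values do not overlap at any of the 10, which were chosen for their p.

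The contrast of the weak promoter peaks as a set was close to 0. Their median log2 fold change was 0.01 (lone 0.03, accompanied 0.01), beside 0.02 for all peaks, 0.15 for weak distal peaks and -0.16 for promoter peaks at 2 CPM or more. The position of these medians depended on how libraries were scaled: with trended scaling the medians were -0.12 for weak promoter peaks, -0.01 for all peaks, 0.01 for weak distal peaks and -0.06 for stronger promoter peaks. Under both scalings the median of the weak promoter peaks lay below that of the weak distal peaks. This also held by TMM within bands of level: below 1 CPM the medians were 0.01 and 0.19, and between 1.5 and 2 CPM 0.01 and 0.12. Beside the weak peaks, the strongest promoter peaks of the accompanied genes had a median of -0.19, and at an unadjusted p under 0.05 11 of 1868 were higher and 380 (20.3%) were lower. With trended scaling these counts were 16 and 107. Over all promoter peaks at 2 CPM or more, 178 were higher and 4135 (22.0%) lower, and with trended scaling 379 and 735, so the count of lower partners was close to the share among stronger promoter peaks and moved with the scaling as theirs did.

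That distance from weak distal peaks was measured again with 1 value per library, the mean log2 CPM of weak promoter peaks minus that of weak distal peaks. It was 0.06, 0.07 and 0.30 in the wildtype libraries and 0.03, 0.04 and 0.02 in the knockout libraries. All knockout values were below all wildtype values, with a difference of -0.11 on the log2 scale (exact two-sided permutation p = 0.1, the smallest possible). Much of it came with wildtype library 3, without which the difference was -0.03. The mean log2 CPM of lone minus accompanied peaks was 0.15, -0.15 and -0.29 in wildtype and -0.10, -0.13 and -0.11 in knockout libraries (difference -0.01, exact permutation p = 1), and it turned to 0.11 without wildtype library 1. The 3 knockout libraries were alike in both measures and the wildtype libraries were spread, with library 3 high in accompanied peaks (0.71 against 0.30 and 0.41 mean log2 CPM).

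**Figure D5:**
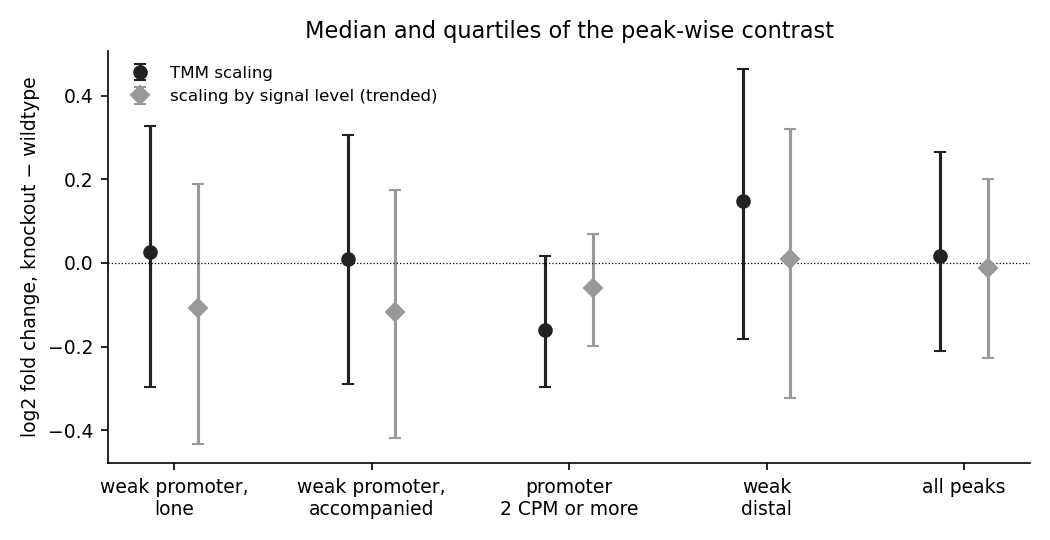
Median (points) and quartiles (bars) over peaks of the log2 fold change, knockout minus wildtype, by set of peaks (horizontal axis), with TMM scaling and with trended scaling. Weak promoter peaks have medians of 0.03 (lone) and 0.01 (accompanied) by TMM, between those of stronger promoter peaks (-0.16) and weak distal peaks (0.15).

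The contrast varied with CpG content. Among weak peaks that overlapped a RefSeq promoter with no stronger promoter peak, the median log2 fold change was 0.20 for 132 peaks at promoters with a CpG ratio under 0.3, 0.10 for 141 at a ratio of 0.3 to 0.6, and -0.13 for 225 at a ratio of 0.6 or more. The quartiles of the CpG-poor class were -0.16 and 0.55 and those of the CpG-rich class -0.43 and 0.22, so the classes overlapped widely. At an unadjusted p under 0.05, 9 peaks of the CpG-poor class (6.82%) were higher and 2 (1.52%) lower. In the CpG-rich class 2 (0.889%) were higher and 7 (3.11%) lower. Over all peaks the shares were 3.10% higher and 5.97% lower, so the lower share was below that of all peaks in both classes. With trended scaling the medians were 0.05, -0.03 and -0.26, and without wildtype library 3 they were 0.22, 0.11 and -0.02. For stronger promoter peaks the medians in the same classes were 0.00, -0.13 and -0.24, and with trended scaling 0.03, -0.02 and -0.07. The base composition of the libraries was not tested.

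Groups of genes are described by counts and medians, beside a median of 0.02 over all peaks. Of all 13007 genes with a promoter peak, 859 (6.60%) had a lone weak peak. Several lists of genes from other tissues had a larger share, namely 11 of 21 olfactory and vomeronasal receptor genes (52.4%), 13 of 46 developmental transcription factor genes (28.3%), among them Neurog3, Otx1 and Barhl1, and 10 of 36 neuronal and synaptic genes (27.8%), among them Gad2, Gria2 and Nrxn3. The share was 10 of 23 stromal and endothelial genes (43.5%), such as Pdgfrb, Flt1 and Cldn5. The lists for glia (2 of 6 genes), liver and kidney (2 of 5), gut and pancreas (3 of 7), epithelia (3 of 14), germline (3 of 19) and muscle (1 of 6) held few genes with a promoter peak at all.

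Among blood lineages the lone share ran from none to a T and NK cell share like that of the tissue lists. None of 26 myeloid granule and monocyte genes and none of 24 erythroid genes with a promoter peak had a lone weak peak, whereas 12 of 36 T and NK cell genes (33.3%) did. B cell genes had 2 of 16, Pax5 and Ms4a1. The other lists gave 1 of 24 macrophage and dendritic cell genes, 2 of 9 mast cell, basophil and eosinophil genes, 2 of 18 megakaryocyte genes, 5 of 33 stem cell genes (Esam, Procr, Slamf1, Tek and Thy1) and 5 of 46 interferon response genes. Zinc finger genes named by symbol had 10 of 311 (3.22%). Some lone genes were counted in several lists. Esam, Tek and Thy1 were also among the stromal and endothelial genes. Eomes was both a T and NK cell gene and a developmental transcription factor gene, and Olig1 was both a developmental transcription factor gene and a glial gene.

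Interferon response genes had 16 weak promoter peaks with a median log2 fold change of 0.49, or 0.42 over 15 without Mx1. Of the 16, 10 were above 0 with TMM and with trended scaling, where the median was 0.36. Their mean log2 CPM was 0.05, 0.25 and 0.39 in wildtype and 0.71, 0.60 and 0.58 in knockout libraries, so every knockout library was above every wildtype library. These means included Mx1, and whether the groups stay apart without it was not tested. The same separation was seen for the weak peaks of stem cell genes and of Hox genes and for weak distal peaks, so it was not particular to interferon response genes. The highest lone peak of an interferon response gene was at Ifi203, of the interferon-inducible DNA-sensing family. It had 0.620, 2.14 and 1.64 against 2.03, 1.65 and 2.89 CPM and overlapping groups (log2 fold change 0.57).

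The 5 weak peaks at 4 Hox genes, classic Polycomb targets that set position along the body axis, all had a log2 fold change above 0, from 0.11 to 1.09 with a median of 0.47. Of all peaks, 51.8% were above 0. The direction was not particular to Hox genes: the 5 epithelial, 4 germline and 2 liver and kidney peaks were also all above 0. The 5 Hox peaks stayed above 0 with trended scaling (median 0.29), without wildtype library 3 (0.50) and on library size (0.59). The peak at Hoxb4, which promotes expansion of blood stem cells when expressed in excess, had 0.531, 0.599 and 0.373 CPM in wildtype and 0.811, 0.792 and 1.61 CPM in knockout libraries (edgeR adjusted p = 0.532). The lone peak at Hoxc5 had 1.68, 1.54 and 1.57 against 2.61, 1.58 and 1.35 CPM, with overlapping groups, and its log2 fold change was -0.12 without knockout library 1. Developmental transcription factors of other families had 19 weak peaks with a median of -0.07, 8 of them above 0. The lowest p there was at Otx1, a factor of forebrain development, with 1.33, 0.770 and 2.01 against 1.16, 0.528 and 0.257 CPM and a log2 fold change of -1.06 (edgeR adjusted p = 0.619). Neurog3, a factor of endocrine pancreas development, had the highest lone peak, with 1.95, 1.45 and 1.71 against 2.20, 1.58 and 2.44 CPM.

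T and NK cell genes had 22 weak promoter peaks with a median log2 fold change of -0.46, of which 17 were below 0, and the median was -0.58 with trended scaling. Their mean log2 CPM was 0.60, 0.24 and 1.07 in wildtype and 0.05, 0.52 and 0.38 in knockout libraries. Wildtype library 3 was the highest, the groups overlapped, and the median was -0.11 with 9 of 22 above 0 without that library. Gzma, a protease of killer cell granules, had 1.86, 1.37 and 2.09 against 0.753, 0.528 and 1.16 CPM (log2 fold change -1.12, edgeR adjusted p = 0.406). Ifng, the interferon of activated T and NK cells, had 1.86, 1.37 and 4.03 against 1.27, 1.72 and 1.67 CPM, the value in wildtype library 3 being the highest. In bulk libraries a smaller number of cells of a type and less accessible DNA per cell cannot be told apart. The part of a change in T or NK cell numbers was not tested.

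Stem cell genes had 18 weak peaks with a median of 0.32 (0.17 with trended scaling and 0.14 without wildtype library 3), 11 of them above 0. Erythroid genes had 5 with a median of 0.12, which was 0.80 without wildtype library 3. The remaining blood lists had medians of 0.29 for 8 macrophage and dendritic cell peaks, 0.11 for 9 megakaryocyte peaks, -0.01 for 5 B cell peaks, 0.08 for 2 myeloid granule and monocyte peaks, and -0.25 for 3 mast cell, basophil and eosinophil peaks. Batf3, a factor of dendritic cell development, had 0.974, 0.770 and 1.27 against 2.09, 2.31 and 1.67 CPM without overlap (edgeR adjusted p = 0.404). Plek, a protein kinase C substrate of platelets, had 1.51, 1.28 and 0.969 against 1.97, 2.51 and 2.44 CPM without overlap (edgeR adjusted p = 0.437). Pax5, the factor of B cell commitment, had 1.51, 1.54 and 2.83 against 0.753, 0.990 and 1.48 CPM (edgeR adjusted p = 0.563).

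Peaks of genes from other tissues lay on both sides of 0. The 14 neuronal and synaptic peaks had a median of -0.09, with the adhesion gene Nrxn3 at 2.04, 2.40 and 2.46 against 1.22, 1.65 and 1.35 CPM (edgeR adjusted p = 0.542) and the glutamate receptor gene Gria2 at 2.83, 1.11 and 2.24 against 2.32, 2.05 and 1.29 CPM. The groups overlapped at Gria2 and not at Nrxn3. The 16 stromal and endothelial peaks had a median of 0.02, with the nerve growth factor receptor gene Ngfr at -1.08 (edgeR adjusted p = 0.561). The 13 olfactory receptor peaks had a median of -0.11, with Olfr530 at -1.12 (edgeR adjusted p = 0.474). Medians were 0.31 for 5 epithelial peaks, 0.23 for 4 germline peaks, 0.19 for 4 gut and pancreas peaks, 0.34 for 2 liver and kidney peaks and 0.25 for 3 glial peaks, and the muscle gene Xirp1 had -0.94. Of these small lists the meiotic recombinase gene Dmc1 had the highest lone germline peak, with 1.59, 1.28 and 0.522 against 2.14, 1.32 and 1.93 CPM. Lgr5, a marker of intestinal stem cells, had 2 weak peaks, and the one with the smaller p had 2.04, 0.342 and 1.57 against 1.97, 2.64 and 1.93 CPM.

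Of the gene classes taken by symbol, the 53 peaks of microRNA and small nucleolar RNA genes had a median of 0.07, with Mir1955 at 0.266, 0.257 and 0.522 against 1.27, 0.858 and 0.707 CPM (edgeR adjusted p = 0.397). The 69 peaks of zinc finger genes had a median of 0.18, the 83 of solute carrier genes -0.05 and the 247 of genes with provisional symbols 0.08. With trended scaling the same medians were -0.05, 0.05, -0.20 and -0.04. Zfp365 had the smallest p among zinc finger genes, with 2.39, 1.80 and 3.28 against 0.869, 0.792 and 1.80 CPM and groups that met at 1.80 CPM (edgeR adjusted p = 0.403). The other 16 members named by list, at 9330136K24Rik, Cebpa, Dsp, Esam, F2, Gp9, Il5ra, Mrc1, Olfr460, Olig1, Ovol2, Prg2, Slc1a3, Slc51a, Snord42b and Zfp300, had log2 fold changes from -0.89 (Zfp300) to 0.55 (Ovol2), overlapping groups and edgeR adjusted p-values from 0.623 (Zfp300) to 0.998 (Mrc1).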

How the data were processed

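ATAC-seq was run on Lin- bone marrow cells of 3 wildtype and 3 Mel18 knockout mice. The authors deposited a table of 109859 peaks with raw counts per peak and library, and their own log2 fold changes and p-values. The submitters' processing notes name FastQC, MultiQC, Trimmomatic 0.40, Bowtie2, Picard, MACS2 2.1.1 and the build mm10; whether cut sites were shifted for Tn5 and how counts were made is not stated there. Coordinates, distances to starts and annotation (other values) are used as deposited, per the file headers. Another 12 per-library columns were not used.

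Counts were fitted over all peaks with edgeR 4.0.16 (R 4.3.3; TMM, filterByExpr, robust quasi-likelihood test, Benjamini-Hochberg adjustment at 0.05); single values per library were compared by exact two-sided permutation (scipy 1.17.1). Mean log2 CPM used a prior count of 2. DESeq2 1.42.0, limma-voom 3.58.1, other scalings (trended: loess offsets, span 0.3), filters, limits and left-out libraries were alternatives. The fit was tested on simulated data. A pair of libraries differed by a chi-square of 2.26 to 9.49 per degree of freedom, so none were counted as 1.

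Promoters of 300 bases come from RefSeq (GRCm38.p6, that is mm10). A match of genes to that table covered under 80% of the lone genes, so CpG and motifs are given over the table's promoters instead, by overlap of 1 base or more.

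The members and the 19 gene lists and 5 symbol patterns were chosen with earlier results of these data known. Peaks named are the 5 of smallest p among the higher and among the lower (1 per gene), and in each list the member with the smallest p and the highest lone member (1 member is not reported here); printed promoters are the first 3 of each direction with an entry and outside chromosomes not printed here. The depth of 12000808 to 16709921 counts per library makes 1 CPM worth 11.3 to 17.3 reads after scaling; intervals are not given, and counting error alone is large at these levels.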

Additional observations from a re-analysis of the deposited data

How the results depend on the processing

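DESeq2's Wald test gave no member an adjusted p. Under the other 19 alternatives, no weak promoter peak was lower past the threshold. Of all peaks, 2.45% were lower past it without wildtype library 3 and 0.485% without wildtype library 2. That share was 0.424% with DESeq2 size factors, 0.275% with limma-voom and 0.0664% with trended scaling without wildtype library 3. With the likelihood ratio test it was 0.00091%, and in the rest 0%. Members higher past the threshold numbered 1 with DESeq2 size factors and 1 with the likelihood ratio test, against 0.00182% of all peaks in each. With trended scaling without wildtype library 3 they numbered 1, against 0.0401%. When each library was left out they numbered 0 to 4, with 4 (0.129%) without wildtype library 3, against 0.29%. In the rest of the 19 the number was 0. At an unadjusted p under 0.05, higher and lower members numbered 135 and 27 with library size alone (4.35% and 0.871%, against 6.52% and 2.72% of all peaks), 30 and 107 with trended scaling (against 2.34% and 3.28% of all peaks), 30 and 24 with DESeq2's Wald test (against 1.91% and 4.26%), 19 and 6 below 1 CPM, 113 and 89 below 3 CPM, 12 and 5 within 100 bp of the start, and 20 and 22 among lone peaks. For the level, distance and lone limits, 2.09% to 2.87% were higher and 0.905% to 2.30% lower, against 3.10% and 5.97% of all peaks. The lower count was 71 with the likelihood ratio test (2.29%, against 4.49% of all peaks). It was 81 with trended scaling without wildtype library 3 (2.61%, against 4.73%). Leaving out each library gave 39 to 143 higher and 33 to 110 lower. All peaks then had 1.63% to 5.68% higher and 4.09% to 8.62% lower. The 143 was without wildtype library 3 (4.61%, against 5.68%) and the 110 without wildtype library 2 (3.55%, against 8.62%). The higher count was 39 without knockout library 2 (1.26%, against 1.65%) and 43 without knockout library 3 (1.39%, against 1.63%). The lower count was 72 without wildtype library 1 (2.32%, against 5.85%). The median log2 fold change was 0.13 with library size alone (0.14 for all peaks), -0.12 with trended scaling, and -0.060 to 0.13 over the left-out libraries, the 0.13 being without wildtype library 3. The lone minus accompanied difference ran from -0.11 to 0.11, turning sign without wildtype library 1. The cause of these shifts was not tested. The differences in read share and against weak distal peaks kept their sign in every alternative run.

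Of 638 alternative values of 46 named peaks with an adjusted p, 613 kept direction and side of the threshold, 5 passed it (Mx1 4 times, Slc2a12 once) and 20 changed sign, all at peaks past the threshold in none of the fits. DESeq2's Wald test gave another 46 values without an adjusted p, all with the same direction. With library size alone Mrc1 was at 0.11; with trended scaling Prg2 was at -0.034 and Snord42b at -0.024; with trended scaling without wildtype library 3, Slc1a3 was at -0.0028, Cebpa at -0.16 and Gp9 at -0.042. Over the left-out libraries the log2 fold change ran from -0.12 to 0.40 at Hoxc5, -0.44 to 0.12 at Gria2, -0.49 to 0.31 at Olig1, -0.044 to 0.69 at Dsp, -0.63 to 0.31 at Mrc1, -0.033 to 0.40 at Cebpa, -0.15 to 0.41 at Prg2, -0.50 to 0.45 at Olfr460, -0.38 to 0.57 at Snord42b and -0.083 to 0.95 at Slc51a.

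No paired analysis was possible because the mice are numbered 1 to 3 in one group and 4 to 6 in the other, and the table's columns are not tied to mice. In simulated counts 0 of 59 tested peaks under 2 CPM, near a start or not, were called when changed by 2-fold. At 4-fold 21 of 59 were called. P-values over 3 against 3 libraries cannot go below 0.1 by exact permutation.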
